A study of Homo sapiens with 8 samples.

Results

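Mitochondrial ribosomal protein genes were taken from all genes listed by the rule that a symbol begins with MRPL or MRPS, followed by digits and at most 1 letter. This gave 77 genes of 23221 symbols, 48 named for the large subunit (MRPL) and 29 for the small subunit (MRPS). The 4 symbols that only resemble the rule, the antisense gene MRPL23-AS1 and the pseudogenes MRPL42P5, MRPL45P2 and MRPS31P5, were left out. Polyadenylated RNA was sequenced from 2 human fibroblast lines, line 1 and line 2, each transfected with an siRNA against SUPT4H1 or with a control siRNA that has no target. Each of the 4 groups (SUPT4H1 siRNA in line 1 and in line 2, control siRNA in line 1 and in line 2) held 2 samples, so that 4 SUPT4H1 siRNA samples stood against 4 control siRNA samples. All samples grew in the same medium and received the same transfection reagent, and the labels describe the lines as population controls. Nothing in the labels says that replicates came from separate cultures, so that p-values rest on a spread that may be technical.

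The mitochondrial ribosome translates the few messenger RNAs encoded in mitochondrial DNA, all of them for subunits of the oxidative phosphorylation complexes. Its RNAs come from mitochondrial DNA, but every one of its proteins is encoded in the nucleus, transcribed by RNA polymerase II, translated in the cytosol and imported. Some of these proteins have a counterpart in bacterial ribosomes, and others exist only in mitochondria. SUPT4H1 encodes SPT4, which pairs with SPT5 to form DSIF, a factor bound to elongating RNA polymerase II. The comparison asked how far the nuclear genes of this particle shifted when SUPT4H1 mRNA was depleted, and whether the genes of its subunits shifted alike.

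Values are FPKM (fragments scaled to transcript length and to the number of mapped fragments), so levels of different genes are compared per length. They are shares of a library, and fewer cells and less RNA per cell cannot be told apart. The FPKM sum was 288293 to 305680, and 11321 to 11447 rows had 1 FPKM or more, depending on the sample. The number of fragments is not given, so depth is unknown, and the deposited interval stands in for it: its half-width was 4.82 to 17.9% of the value in these genes, with a median of 8.49%. SUPT4H1 had 1.37 and 1.43 FPKM in the SUPT4H1 siRNA samples of line 1 and 1.69 and 1.74 FPKM in those of line 2, against 25.6 and 25.6 FPKM in the control siRNA samples of line 1 and 26.2 and 28.3 FPKM in those of line 2. This left 5.89% of the control level, a log2 change of -3.42, and an exact permutation test within the lines gave p = 0.0556, 2-sided, the smallest that 36 arrangements allow. Of the fibroblast markers, 8 of 8 stood at 1 FPKM or more in every sample, summing to 11110 to 13025 FPKM in SUPT4H1 siRNA samples and 12351 to 12994 FPKM in control siRNA samples. KRT5, CD3E and MYOD1, markers of epithelium, T cells and muscle, were at 0 in every sample. Of the 16 markers of other cell types, CD14, a monocyte marker (1.89 to 3.10 FPKM), and DES, a muscle marker (up to 1.19 FPKM), reached 1 FPKM in any sample.

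Mitochondrial ribosomal protein transcripts shifted little after SUPT4H1 siRNA, and in both directions. Of the 77 genes, 77 passed the filter of a mean of 1 FPKM, 10 were higher, 6 were lower, and 61 did not pass the test. The test was limma on log2(FPKM + 1) with the line as block, 2-sided, with Benjamini-Hochberg adjustment over 11434 genes and a threshold of 0.05. The share called was 20.8%, against 42.1% of all genes tested, of which 26.9% were higher and 15.2% lower. The log2 change stayed within 0.1 of 0 in 57 of the 77 genes (74.0%), against 53.5% of all genes. The median size of the log2 change, without its sign, was 0.06 in these genes and 0.09 in all genes, while the median standard error was 0.04 in both. The count rested on the block: without it, as the series design groups the samples, 0 of the 77 genes were called by limma, against 5.33% of all genes, and 11 had an unadjusted p under 0.05. Leaving out the first control siRNA sample of line 2 also lowered the count, to 10 genes, 6 higher and 4 lower. The share of all genes called fell as well in that omission, to 35.02% from 42.1%.

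The median change of either subunit was small. Large subunit genes had a median log2 change of 0.03, with 7 of 48 higher and 4 lower, and small subunit genes had a median of -0.0031, with 3 of 29 higher and 2 lower. The median over all genes tested was 0.03. Called were 22.9% of the large and 17.2% of the small subunit genes, against 42.1% of all genes. Between replicates of 1 siRNA in 1 line, the median of the large subunit varied with an SD of 0.0343 and that of the small subunit with an SD of 0.0297, a spread between single samples that is larger than the change of that subunit between means of 4. The difference between the subunits was not tested. FPKM summed over the large subunit to 896, 916, 888 and 883 in the SUPT4H1 siRNA samples and to 851, 884, 847 and 889 in the control siRNA samples. The small subunit summed to 471, 487, 479 and 494 FPKM in the SUPT4H1 siRNA samples and to 484, 485, 469 and 492 FPKM in the control siRNA samples. In each list the samples of line 1 come first. The large subunit sums of the siRNAs separated in line 1 and overlapped in line 2. Those of the small subunit overlapped in both lines. The FPKM sum of all rows also separated in line 1, at 297431 and 304281 with SUPT4H1 siRNA against 288293 and 291609 in the controls. Both subunits together made up 0.460 and 0.461% of it with SUPT4H1 siRNA in line 1, against 0.463 and 0.470% in the controls. In line 2 these shares overlapped. The share of the large subunit alone was not computed, so its separation cannot be told apart from that of the whole sum. The ratio of the large to the small subunit sum was 1.90, 1.88, 1.86 and 1.79 in the SUPT4H1 siRNA samples, against 1.76, 1.82, 1.81 and 1.81 in the control siRNA samples, which overlap in 1 SUPT4H1 siRNA sample of line 2. MRPS6 is part of the small subunit sum, with 39.2 and 39.5 FPKM in the SUPT4H1 siRNA samples of line 1 against 59.1 and 58.1 FPKM in their controls. Sums and ratios without MRPS6 were not computed, so they cannot be read as a shift of a whole subunit. Scaling by median ratios lowered the median of all genes by 0.03 and changed the split to 8 higher and 13 lower, with a median of -0.0024 in the large and -0.04 in the small subunit. Of all genes tested, 40.5% were then called, 2316 higher and 2310 lower. No SD was computed on scaled values, so the scaled medians cannot be set against the SDs above. Without the second control siRNA sample of line 2, the median of the large subunit was 0.045. Its SD was not recomputed without that sample, so these values cannot be compared either. Leaving out either SUPT4H1 siRNA sample of line 2, or the first control siRNA sample of line 2, left 5 large subunit genes called.

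**Figure D1:**
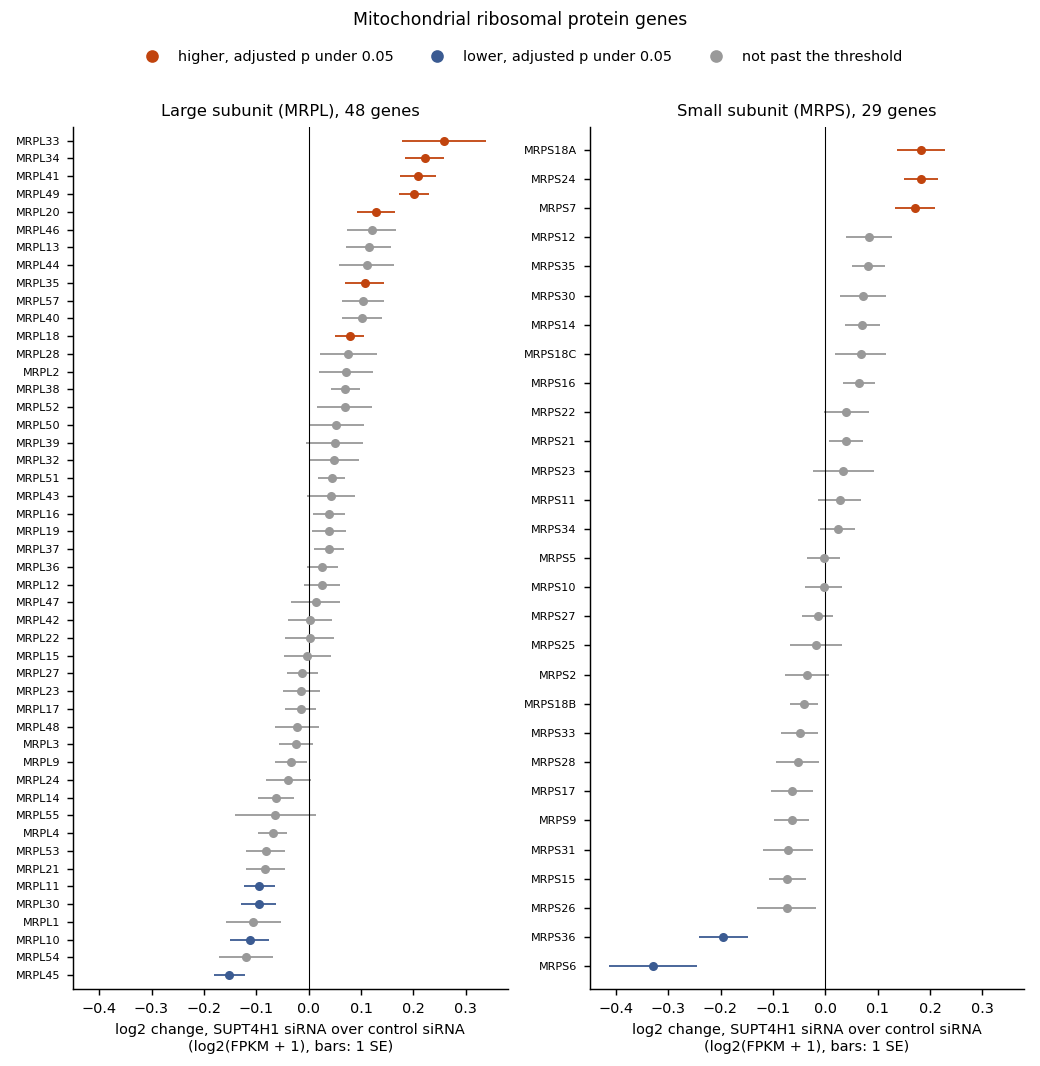
Fitted log2 change, SUPT4H1 siRNA over control siRNA, on the log2(FPKM + 1) scale for the 48 large subunit genes (left) and the 29 small subunit genes (right), with bars of 1 standard error and colours for the 10 genes called higher and the 6 called lower. Most points lie within 0.1 of 0, from MRPS6 at -0.33 to MRPL33 at 0.26.

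Of the 10 genes called higher, 7 were named for the large subunit, as were 48 of all 77 genes. The 10 lay between 0.08 and 0.26 on the log2 scale. MRPL33, the counterpart of bacterial ribosomal protein L33, had 55.7 and 60.5 FPKM in the SUPT4H1 siRNA samples of line 1 and 60.8 and 46.3 FPKM in those of line 2, against 47.2 and 50.7 FPKM in the control siRNA samples of line 1 and 40.5 and 47.3 FPKM in those of line 2. The samples separated in line 1 and overlapped in line 2, where 1 SUPT4H1 siRNA sample lay below the higher control. Its log2 change was 0.26 (SE 0.08, adjusted p = 0.0282 by limma), the largest rise among the 77 genes. The call was lost without the second SUPT4H1 siRNA sample of line 1 (adjusted p = 0.072 by limma), the first of line 2 (0.0569), or the first control siRNA sample of line 1 (0.0664) or line 2 (0.0845).

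MRPL34, the counterpart of bacterial L34, had 24.8 and 24.6 FPKM in the SUPT4H1 siRNA samples of line 1 and 21.1 and 21.4 FPKM in those of line 2, against 19.7 and 20.6 FPKM in the control siRNA samples of line 1 and 18.0 and 19.8 FPKM in those of line 2. Every SUPT4H1 siRNA sample lay above every control sample of either line, and the log2 change was 0.22 (SE 0.04, adjusted p = 0.0016 by limma). MRPL41, a large subunit protein with no bacterial counterpart, had 40.1 and 40.1 FPKM in the SUPT4H1 siRNA samples of line 1 and 44.1 and 42.9 FPKM in those of line 2, against 32.1 and 34.0 FPKM in the control siRNA samples of line 1 and 40.1 and 38.4 FPKM in those of line 2. The groups separated within each line, and the controls of line 2 reached the level of the SUPT4H1 siRNA samples of line 1. The log2 change of MRPL41 was 0.21 (SE 0.03, adjusted p = 0.0013 by limma). Both calls held when any 1 of the 8 samples was left out.

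MRPL49, another protein of the large subunit found only in mitochondria, had 18.3 and 18.7 FPKM in the SUPT4H1 siRNA samples of line 1 and 17.1 and 16.9 FPKM in those of line 2, against 16.5 and 16.7 FPKM in the control siRNA samples of line 1 and 14.0 and 14.2 FPKM in those of line 2. It rose by 0.20 on the log2 scale (SE 0.03), with the lowest adjusted p of the 77 genes, 0.000609 by limma. Within each line both SUPT4H1 siRNA samples lay above both controls. MRPL20, whose bacterial counterpart L20 is needed early in the assembly of the large subunit, had 47.2 and 46.7 FPKM in the SUPT4H1 siRNA samples of line 1 and 43.0 and 44.2 FPKM in those of line 2, against 41.7 and 45.3 FPKM in the control siRNA samples of line 1 and 37.4 and 41.2 FPKM in those of line 2. It is the most abundant large subunit gene after MRPL51 and MRPL33, and its groups separated within both lines by little (log2 change 0.13, SE 0.04, adjusted p = 0.0205 by limma). Its call was lost without the second SUPT4H1 siRNA sample of line 2 (adjusted p = 0.0613 by limma), or the first control siRNA sample of line 1 (0.0601) or line 2 (0.0508).

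The genes called higher among those named for the small subunit were MRPS24, MRPS18A and MRPS7. MRPS24, the counterpart of bacterial S3, was the most abundant of the 77 genes, with a mean of 68.7 FPKM over the 8 samples. It had 64.0 and 67.5 FPKM in the SUPT4H1 siRNA samples of line 1 and 78.8 and 82.3 FPKM in those of line 2, against 58.4 and 56.5 FPKM in the control siRNA samples of line 1 and 68.7 and 73.9 FPKM in those of line 2. Line 2 was higher than line 1 under either siRNA, and within each line the SUPT4H1 siRNA samples lay above the controls (log2 change 0.18, SE 0.03, adjusted p = 0.0019 by limma). MRPS18A is 1 of the human genes related to bacterial S18, and despite its name its protein sits in the large subunit. It had 9.81 and 10.7 FPKM in the SUPT4H1 siRNA samples of line 1 and 10.2 and 11.4 FPKM in those of line 2, against 9.23 and 9.20 FPKM in the control siRNA samples of line 1 and 9.55 and 8.63 FPKM in those of line 2. Every SUPT4H1 siRNA sample was above every control sample, and the log2 change was 0.18 (SE 0.05, adjusted p = 0.0117 by limma).

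MRPS7, the counterpart of bacterial S7, which sits in the head of the small subunit, rose by 0.17 on the log2 scale (SE 0.04, adjusted p = 0.007 by limma), with 0.24 in line 2 and 0.10 in line 1. MRPL35 rose by 0.11 (adjusted p = 0.045 by limma) and MRPL18 by 0.08 (adjusted p = 0.0491 by limma). Leaving out 1 sample ended the call of MRPL35 in 7 of 8 cases, with adjusted p up to 0.119 by limma, and that of MRPL18 in 6 of 8 cases, with adjusted p up to 0.14. Scaling by median ratios also ended both calls (adjusted p = 0.134 for MRPL35 and 0.226 for MRPL18 by limma), and scaling to 1 sum that of MRPL18 (0.058). MRPL35 held only without the first SUPT4H1 siRNA sample of line 1, and MRPL18 without the first SUPT4H1 siRNA or the first control siRNA sample of line 1. In contrast, MRPS24, MRPS18A, MRPS7 and MRPL49 kept their calls in all 8 omissions.

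Among the genes called lower, MRPS6 stood apart from the rest in size. MRPS6, the counterpart of bacterial S6, had 39.2 and 39.5 FPKM in the SUPT4H1 siRNA samples of line 1 and 46.8 and 52.3 FPKM in those of line 2, against 59.1 and 58.1 FPKM in the control siRNA samples of line 1 and 53.1 and 52.7 FPKM in those of line 2. The groups lay far apart in line 1 and almost touched in line 2. The log2 change over both lines was -0.33 (SE 0.08, adjusted p = 0.0122 by limma). MRPS36 was named as a small subunit protein, but its product is also described as a component of the 2-oxoglutarate dehydrogenase complex of the citric acid cycle and is absent from structures of the ribosome. It had 4.45 and 4.76 FPKM in the SUPT4H1 siRNA samples of line 1 and 4.28 and 4.56 FPKM in those of line 2, against 4.90 and 5.30 FPKM in the control siRNA samples of line 1 and 5.29 and 5.76 FPKM in those of line 2. No SUPT4H1 siRNA sample reached the lowest control, and the log2 change was -0.19 (SE 0.05, adjusted p = 0.0088 by limma).

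MRPL45, a mitochondria-specific protein near the exit of the peptide tunnel that helps hold the ribosome at the inner membrane, had 13.4 and 13.1 FPKM in the SUPT4H1 siRNA samples of line 1 and 12.3 and 12.3 FPKM in those of line 2, against 14.1 and 15.3 FPKM in the control siRNA samples of line 1 and 14.0 and 13.8 FPKM in those of line 2. No SUPT4H1 siRNA sample reached the lowest control, and MRPL45 fell by 0.15 on the log2 scale (SE 0.03, adjusted p = 0.0034 by limma). MRPL10 and MRPL11 form the base of the ribosomal stalk, which recruits translation factors. MRPL10 had 12.4 and 12.5 FPKM in the SUPT4H1 siRNA samples of line 1 and 12.6 and 12.6 FPKM in those of line 2, against 14.0 and 13.9 FPKM in the control siRNA samples of line 1 and 12.5 and 14.2 FPKM in those of line 2. MRPL11 had 11.01 and 10.9 FPKM in the SUPT4H1 siRNA samples of line 1 and 10.0 and 10.4 FPKM in those of line 2, against 11.2 and 12.1 FPKM in the control siRNA samples of line 1 and 11.1 and 11.1 FPKM in those of line 2. MRPL11 separated within both lines, while 1 control sample of MRPL10 in line 2 lay below both SUPT4H1 siRNA samples. The log2 change was -0.11 for MRPL10 (SE 0.04, adjusted p = 0.0379 by limma) and -0.09 for MRPL11 (SE 0.03, adjusted p = 0.0337 by limma). MRPL12, the stalk protein itself, did not pass the test (log2 change 0.03, adjusted p = 0.595 by limma).

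MRPL30, the counterpart of bacterial L30, had 5.44 and 5.24 FPKM in the SUPT4H1 siRNA samples of line 1 and 5.53 and 5.28 FPKM in those of line 2, against 5.46 and 5.81 FPKM in the control siRNA samples of line 1 and 6.07 and 5.90 FPKM in those of line 2. The groups separated by a small margin in line 1 and by more in line 2 (log2 change -0.10, SE 0.03, adjusted p = 0.0453 by limma). Leaving out 1 sample ended the calls of MRPL10 and MRPL11 in 7 of 8 cases each and that of MRPL30 in 6 of 8, with adjusted p up to 0.106, 0.0996 and 0.126 by limma, and MRPL30 was at 0.0505 when scaled to 1 sum. MRPL10 held only without the first control siRNA sample of line 2, MRPL11 only without the first control siRNA sample of line 1, and MRPL30 without the first SUPT4H1 siRNA or the first control siRNA sample of line 1. MRPS6, MRPS36 and MRPL45 kept their calls in all 8 omissions.

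**Figure D2:**
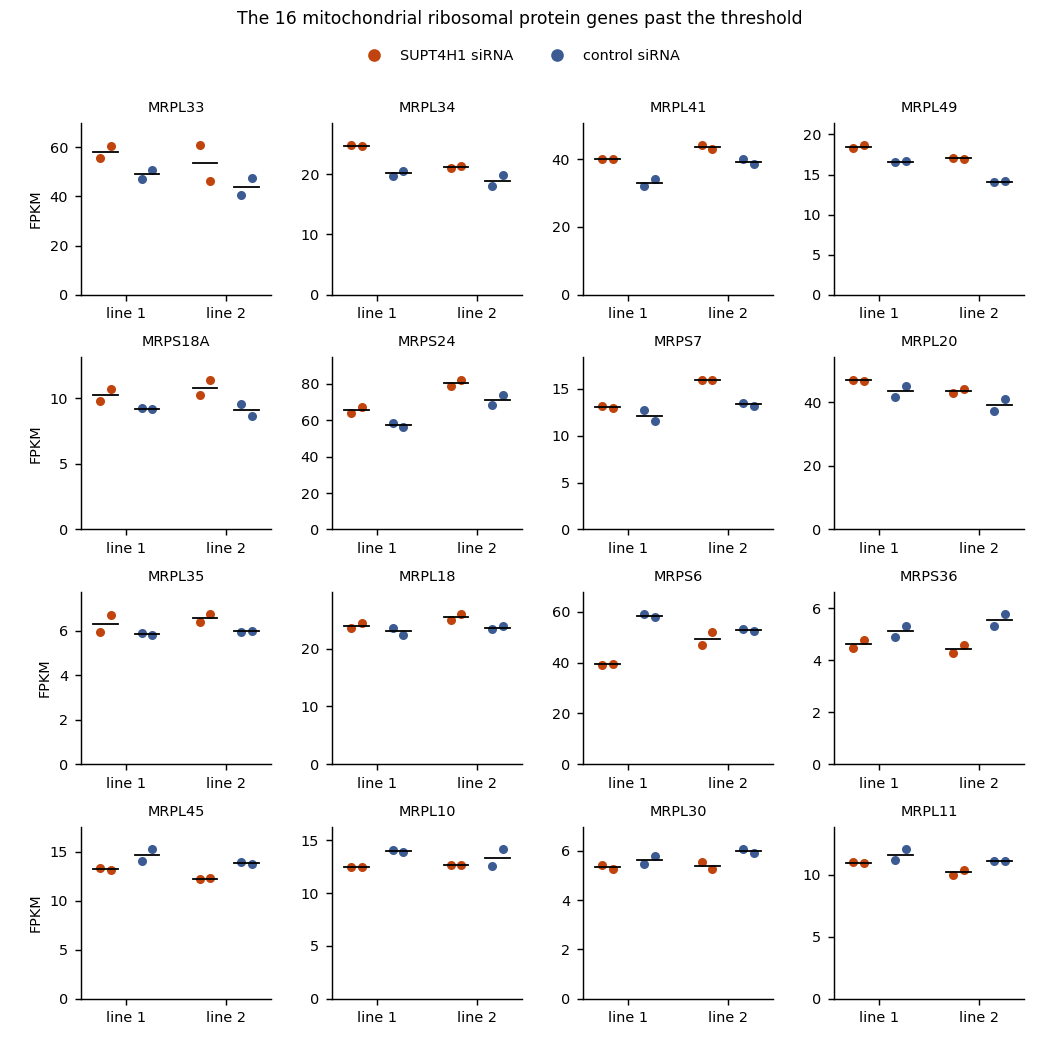
FPKM of the 16 genes that passed the threshold, 1 panel a gene, with each sample as a point (SUPT4H1 siRNA left of control siRNA within each line), a bar at the mean of each pair and an axis that starts at 0. The differences are small beside the levels, and in MRPS6 the SUPT4H1 siRNA samples of line 1, at 39.2 and 39.5 FPKM, lie far below their controls.

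The samples were also compared by their order alone. Within both lines, every SUPT4H1 siRNA sample was above every control in 13 of the 77 genes and below every control in 5, whereas 45.3% of all genes were ordered in either direction, 28.8% upwards and 16.5% downwards. Of the 16 genes called by limma, 13 were ordered in this way, and MRPL33, MRPL10 and MRPL18 were not. MRPS16, MRPL38, MRPS35, MRPL40 and MRPL57 were ordered upwards without passing the test, with log2 changes of 0.06, 0.07, 0.08, 0.10 and 0.10. The 61 genes that did not pass lay between -0.12 (MRPL54) and 0.12 (MRPL46) on the log2 scale. The most abundant large subunit gene, MRPL51, is among them: it had 64.4 and 67.4 FPKM in the SUPT4H1 siRNA samples of line 1 and 65.8 and 67.9 FPKM in those of line 2, against 62.3 and 62.7 FPKM in the control siRNA samples of line 1 and 65.7 and 66.8 FPKM in those of line 2. Its samples separated in line 1 and overlapped in line 2 (log2 change 0.04, SE 0.03, adjusted p = 0.213 by limma). MRPS34, the third in abundance among the small subunit genes after MRPS24 and MRPS6, had 29.99 and 29.64 FPKM in the SUPT4H1 siRNA samples of line 1 and 31.3 and 32.5 FPKM in those of line 2, against 28.9 and 29.4 FPKM in the control siRNA samples of line 1 and 29.9 and 33.3 FPKM in those of line 2. Its log2 change of 0.02 (SE 0.03, adjusted p = 0.608 by limma) was smaller than its error, and it turned to -0.01 when scaled by median ratios.

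Sorting the genes by structure and by descent changed the counts a little. MRPS30 and MRPS18A sit in the large subunit and MRPS36 in neither, and with that assignment 8 of 50 large subunit genes were higher and 4 lower, against 2 of 26 higher and 1 lower in the small subunit. Called were 24.0% of that large and 11.5% of that small subunit, against 42.1% of all genes. Of the 46 ribosomal proteins with a bacterial counterpart 8 were higher and 4 lower (26.1% called), with a median log2 change of -0.00023. Of the 30 proteins found only in mitochondria 2 were higher and 1 lower (10.0% called), with a median of 0.04. These differences between classes were not tested. Across the 77 genes, the log2 change had a Pearson r of -0.32 and a Spearman rho of -0.25 with the genomic span, against -0.05 for either over all genes tested. The points share their libraries, and spans ran from 0.699 kb in MRPL41 to 111 kb in MRPS28. With the mean FPKM, r was 0.14 and rho 0.09.

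The 5′ flanks of these genes were read for matches to 3 motifs of factors known to act on nuclear genes of mitochondria: ETS factors such as GABP (CCGGAAG), NRF1 (GCGCA, any base, then GCGC) and YY1 (AANATGGCG), each on both strands, with overlaps allowed. RefSeq windows of 250 bases before to 50 bases after the start, on GRCh38.p14, were matched by symbol for 68 of the 77 genes. A gene counted if any of its windows held a match. The ETS motif was found for 29 of the 68 genes (42.6%), against 23.4% of the 8653 tested genes with a window. YY1 matches were found for 18 genes (26.5%), against 8.85% of the tested genes. NRF1 matches were found for 9 genes (13.2%), against 14.1% of the tested genes. At least 1 of the motifs was found for 48 of the 68 genes (70.6%), against 39.8% of the tested genes. Of all 35116 windows counted singly, 10.3% held ETS, 3.19% YY1 and 5.78% NRF1. Those shares are per window and do not compare directly with shares of genes. Of the 9 genes with a window that were called higher, 4 had the ETS motif, as did 1 of the 4 called lower and 24 of the 55 not called. YY1 was found for 2 of those 9, 0 of those 4 and 16 of those 55 genes, and NRF1 for 1, 2 and 6. A match describes the letters only, and binding was not measured.

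To show what these flanks look like, the 250 bases before the start are printed for the 8 genes with a window whose calls held when any 1 sample was left out, 6 higher and 2 lower, whether or not they hold a motif. They lie, on GRCh38.p14, at chr19:17292323-17292572, plus strand (MRPL34), chr9:137551629-137551878, plus strand (MRPL41), chr11:65121933-65122182, plus strand (MRPL49), chr6:43687792-43688041, minus strand (MRPS18A), chr7:43869518-43869767, minus strand (MRPS24), chr17:75261629-75261878, plus strand (MRPS7), chr17:38296918-38297167, plus strand (MRPL45) and chr21:34073328-34073577, plus strand (MRPS6). Where RefSeq gives several starts, as for MRPL34 and MRPL49, the window of lowest coordinate is shown. All run 5′ to 3′ on the strand of the gene, and capitals mark motif matches on either strand.
MRPL34: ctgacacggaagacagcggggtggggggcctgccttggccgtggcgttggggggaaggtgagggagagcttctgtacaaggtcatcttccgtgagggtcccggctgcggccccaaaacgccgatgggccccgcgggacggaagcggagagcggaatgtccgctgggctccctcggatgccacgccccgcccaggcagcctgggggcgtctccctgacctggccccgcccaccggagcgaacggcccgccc
MRPL41: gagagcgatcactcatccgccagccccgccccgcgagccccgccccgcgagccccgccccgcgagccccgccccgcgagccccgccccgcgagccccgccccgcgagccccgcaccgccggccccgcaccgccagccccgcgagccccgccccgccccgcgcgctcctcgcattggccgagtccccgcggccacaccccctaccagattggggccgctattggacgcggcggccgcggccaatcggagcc
MRPL49: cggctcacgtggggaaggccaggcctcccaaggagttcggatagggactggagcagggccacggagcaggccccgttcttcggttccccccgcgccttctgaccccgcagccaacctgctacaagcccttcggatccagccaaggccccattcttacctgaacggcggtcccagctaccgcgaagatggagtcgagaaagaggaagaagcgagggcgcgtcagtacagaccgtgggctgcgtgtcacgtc
MRPS18A: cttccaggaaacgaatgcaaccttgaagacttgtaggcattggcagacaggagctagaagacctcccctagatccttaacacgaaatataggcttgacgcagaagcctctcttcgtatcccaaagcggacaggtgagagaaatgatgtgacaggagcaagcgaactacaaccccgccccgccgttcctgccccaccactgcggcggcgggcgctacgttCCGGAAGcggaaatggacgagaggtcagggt
MRPS24: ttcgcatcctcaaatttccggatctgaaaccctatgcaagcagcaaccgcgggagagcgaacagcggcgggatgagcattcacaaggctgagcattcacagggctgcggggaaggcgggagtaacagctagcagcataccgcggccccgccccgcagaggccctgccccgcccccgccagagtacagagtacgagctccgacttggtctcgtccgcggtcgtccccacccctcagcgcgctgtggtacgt
MRPS7: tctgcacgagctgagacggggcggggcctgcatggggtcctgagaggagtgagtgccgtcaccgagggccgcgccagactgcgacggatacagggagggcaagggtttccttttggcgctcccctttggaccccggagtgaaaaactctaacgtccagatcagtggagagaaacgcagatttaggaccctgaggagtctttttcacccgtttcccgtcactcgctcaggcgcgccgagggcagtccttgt
MRPL45: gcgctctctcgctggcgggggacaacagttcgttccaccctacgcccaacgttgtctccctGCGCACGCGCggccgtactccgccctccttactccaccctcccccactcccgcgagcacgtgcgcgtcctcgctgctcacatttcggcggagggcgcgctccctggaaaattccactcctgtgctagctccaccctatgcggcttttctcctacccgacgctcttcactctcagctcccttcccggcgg
MRPS6: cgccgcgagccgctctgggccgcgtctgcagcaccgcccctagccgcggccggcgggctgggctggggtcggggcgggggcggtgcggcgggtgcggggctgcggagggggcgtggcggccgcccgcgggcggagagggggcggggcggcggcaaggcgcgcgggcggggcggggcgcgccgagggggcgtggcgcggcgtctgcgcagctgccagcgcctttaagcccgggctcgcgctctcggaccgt
MRPS18A carries the ETS motif and MRPL45 an NRF1 match, and the stretches shown of the other 6 genes hold none of the 3 motifs. MRPS18A and MRPS24 each have a YY1 match that ends beyond the printed stretch, within the window counted.

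The responses of the lines overlapped in part. In line 1, 5 of the 77 genes were higher and 5 lower, against 30.7% of all genes called there, 19.0% higher and 11.6% lower. In line 2, 8 were higher and 6 lower, against 42.9% of all genes, 27.0% higher and 15.9% lower. Both lines called the same 5 genes, MRPL34, MRPL41, MRPL49, MRPS24 and MRPL45, which is 5 of the 10 called in line 1 and 5 of the 14 called in line 2, each in the same direction. Over all genes, 2461 were called in the same direction in both lines, 70.2% of those called in line 1 and 50.2% of those called in line 2. Without the first SUPT4H1 siRNA or the first control siRNA sample of line 2, 9 genes were called in line 2. For these omissions, the share of all genes called in line 2 is not given here, so the drop cannot be set against all genes. The log2 changes had the same sign in 51 of 77 genes (66.2%), against 74.3% of all genes. Across the 77 genes, the log2 changes of line 2 had a Pearson r of 0.55 and a Spearman rho of 0.63 with those of line 1, against 0.68 and 0.64 over all genes tested. Genes are not independent replicates, and those of 1 line share its samples.

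**Figure D3:**
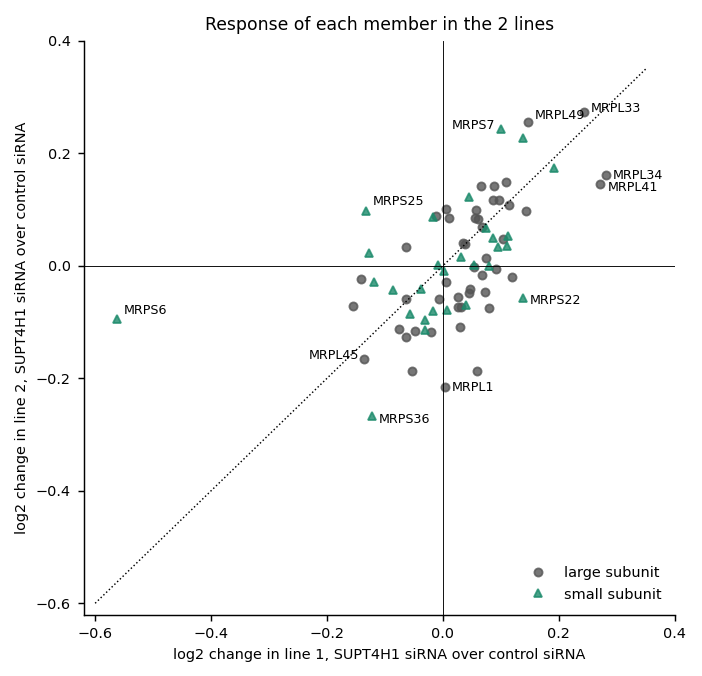
Log2 change, SUPT4H1 siRNA over control siRNA, of each of the 77 genes in line 1 (horizontal) and line 2 (vertical), on the log2(FPKM + 1) scale, with grey circles for the large subunit, green triangles for the small subunit and a dotted line of equal response. MRPS6 lies alone at the left, at -0.10 in line 2 and -0.56 in line 1, and most other genes crowd around 0.

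A difference between the responses of the lines, tested as line 2 minus line 1, was called in 3 of the 77 genes, 2 positive and 1 negative, against 9.85% of all genes, 5.37% positive and 4.48% negative. For MRPS6 it was 0.47 (SE 0.06, adjusted p = 0.00147 by limma), from a log2 change of -0.10 in line 2 and -0.56 in line 1. The change in line 2 alone did not pass the test (adjusted p = 0.111 by limma). MRPS25, a mitochondria-specific protein of the small subunit, had 5.10 and 5.17 FPKM in the SUPT4H1 siRNA samples of line 1 and 4.66 and 4.64 FPKM in those of line 2, against 5.68 and 5.77 FPKM in the control siRNA samples of line 1 and 4.11 and 4.46 FPKM in those of line 2. Its SUPT4H1 siRNA samples were above the controls in line 2 and below them in line 1, a difference of 0.23 (SE 0.06, adjusted p = 0.049 by limma). MRPS22, also specific to mitochondria, had 18.4 and 19.0 FPKM in the SUPT4H1 siRNA samples of line 1 and 16.1 and 16.1 FPKM in those of line 2, against 16.7 and 17.2 FPKM in the control siRNA samples of line 1 and 16.3 and 17.3 FPKM in those of line 2. Its SUPT4H1 siRNA samples were below the controls in line 2 and above them in line 1, a difference of -0.20 (SE 0.05, adjusted p = 0.0471 by limma). Only the difference in MRPS6 held in all 8 omissions of 1 sample. The difference in MRPS25 held only without the second control siRNA sample of line 2, and that in MRPS22 only without the first (adjusted p up to 0.143 and 0.153 by limma).

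The lines also differed before any knockdown. In control siRNA samples, 8 of the 77 genes were higher and 16 lower in line 2 than in line 1, against 58.0% of all genes, 24.2% higher and 33.8% lower. MRPS10, the counterpart of bacterial S10, averaged 11.2 FPKM in the control siRNA samples of line 2 and 16.3 FPKM in those of line 1 (log2 difference -0.51), and MRPS26 differed by -0.40 and MRPL24 by -0.36. MRPS24 (0.31), MRPL41 (0.24) and MRPL23 (0.23) were the genes furthest above in line 2. The response of MRPS10 to SUPT4H1 siRNA was -0.0032 over both lines (adjusted p = 0.952 by limma), so the largest difference between lines in this family stood beside 1 of its smallest responses.

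For some of these genes the reads may belong in part to another gene. MRPL45, MRPL42 and MRPS31 have pseudogene copies among the symbols listed, MRPL45P2 at a mean of 0.633 FPKM, MRPL42P5 at 0.0947 FPKM and MRPS31P5 at 1.36 FPKM, and how reads of near-identical copies were assigned is not given. In the hg19 coordinates of the files, 14 of the 77 overlap another symbol, and the use of strand is not given. The called genes among them are MRPS24 (URGCP-MRPS24), MRPS7 (GGA3 and MIF4GD), MRPL20 (LOC148413), MRPL49 (FAU and SYVN1) and MRPS6 (SLC5A3). Sharing of reads was not tested for any of them. MRPS6 (21:35445823-35515334) begins at the same base as SLC5A3 (21:35445823-35478561), which encodes a sodium-coupled myo-inositol transporter that cells use against osmotic stress. SLC5A3 had 7.08 and 6.46 FPKM in the SUPT4H1 siRNA samples of line 1 and 7.91 and 8.28 FPKM in those of line 2, against 11.7 and 11.6 FPKM in the control siRNA samples of line 1 and 9.40 and 9.12 FPKM in those of line 2. It fell by 0.44 on the log2 scale (SE 0.09, adjusted p = 0.00504 by limma), with -0.17 in line 2 and -0.70 in line 1, and the difference between lines passed the test (adjusted p = 0.000977 by limma). The fall of MRPS6 and its difference between lines thus stand beside the same pattern in a gene at an overlapping locus. Whether the 2 genes share reads was not tested.

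MRPL49 (11:64889655-64894841) overlaps FAU (11:64888099-64889672) at the 5′ ends of both genes, which are transcribed away from each other, with 49 bases between the starts in RefSeq. FAU encodes a ubiquitin-like protein fused to a protein of the cytosolic small subunit. FAU had 209.7 and 216 FPKM in the SUPT4H1 siRNA samples of line 1 and 176 and 184 FPKM in those of line 2, against 233 and 249 FPKM in the control siRNA samples of line 1 and 206 and 219 FPKM in those of line 2. It fell by 0.21 on the log2 scale (SE 0.03, adjusted p = 0.00134 by limma) while MRPL49 rose, so that the neighbours moved in opposite directions. In all, 13 of the 68 genes with a RefSeq window (19.1%) had a neighbour that starts within 500 bases on the other strand, against 12.9% of the tested genes. The log2 changes of gene and neighbour had the same sign for 8 of the 13 genes. MRPL46 and MRPS11, each the neighbour of the other, are both among these 8, so 1 pair counts from both sides. Of the neighbours 2 were called, against 42.1% of all genes. MRPL49 with FAU was the 1 pair in which both were called. MRPL46 and MRPS11, the 1 such pair within the family, start 320 bases apart, and had log2 changes of 0.12 (adjusted p = 0.0669 by limma) and 0.03 (adjusted p = 0.617 by limma).

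**Figure D4:**
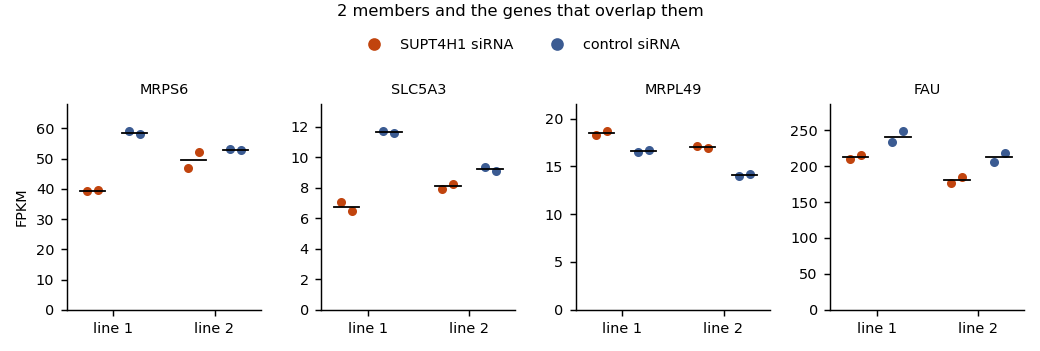
FPKM by sample (points) and mean of each pair (bars) of MRPS6 with SLC5A3 and of MRPL49 with FAU, with SUPT4H1 siRNA left of control siRNA in each line and axes that start at 0. SLC5A3 follows MRPS6 down in line 1, at 7.08 and 6.46 FPKM against 11.7 and 11.6 FPKM, while FAU lies below its controls where MRPL49 lies above its own.

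The genes that work with these 77 were counted in the same fit. Of 6 tested genes for mitochondrial ribosomal proteins with other names, PTCD3 (log2 change 0.12, adjusted p = 0.0379 by limma), a protein of the small subunit, and AURKAIP1 (log2 change 0.12, adjusted p = 0.00421 by limma), another of the small subunit, were higher. PTCD3 and AURKAIP1 were 33.3% of that list, against 42.1% of all genes. Of 18 translation factors and helpers, 5 were higher (27.8%, against 42.1% of all genes called in either direction), with a list median of -0.01. Scaled by median ratios, 2 were higher and 2 lower, and PTCD3 and MTRF1L lost their calls (adjusted p = 0.0918 and 0.0571 by limma). GFM2, which splits the ribosome after termination, averaged 6.65 ± 0.728 FPKM in SUPT4H1 siRNA samples and 5.58 ± 0.381 FPKM in control siRNA samples (SD, n = 4 each), a log2 change of 0.21 (adjusted p = 0.0035 by limma). MTRF1L, a peptide release factor, changed by 0.14 (adjusted p = 0.03 by limma). PTCD3 and MTRF1L lost their calls without either SUPT4H1 siRNA or either control siRNA sample of line 2, PTCD3 also without the second and MTRF1L without the first control siRNA sample of line 1, with adjusted p up to 0.106 and 0.0888 by limma.

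Mitochondrial aminoacyl-tRNA synthetases, which load the amino acids that this ribosome uses, numbered 17, of which 4 were higher and 3 lower, a share of 41.2% close to the 42.1% of all genes. LARS2, for leucine, averaged 4.37 ± 0.351 FPKM in SUPT4H1 siRNA samples and 3.64 ± 0.19 FPKM in control siRNA samples (SD, n = 4 each), a log2 change of 0.21 (adjusted p = 0.00266 by limma). WARS2, for tryptophan, averaged 4.83 ± 0.257 FPKM in SUPT4H1 siRNA samples and 6.67 ± 0.451 FPKM in control siRNA samples (SD, n = 4 each), a log2 change of -0.39 (adjusted p = 0.000292 by limma). CARS2, for cysteine, changed by 0.20 and FARS2, for phenylalanine, by -0.20 (adjusted p = 0.0297 and 0.037 by limma). Both calls were lost without either SUPT4H1 siRNA or either control siRNA sample of line 2 and without the first SUPT4H1 siRNA sample of line 1, that of FARS2 also without the first control siRNA sample of line 1, with adjusted p up to 0.0871 for CARS2 and 0.105 for FARS2 by limma, and CARS2 was at 0.0591 when scaled by median ratios.

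Of 24 tested factors that assemble the mitochondrial ribosome or mature its RNA, 3 were higher and 1 lower, 16.7% against 42.1% of all genes, and 1 was higher and 1 lower when scaled by median ratios. MTG1, a GTPase of large subunit assembly, rose by 0.11 (adjusted p = 0.00598 by limma), and GTPBP10, another such GTPase, by 0.11 (adjusted p = 0.0483 by limma). The call of GTPBP10 held only without the second control siRNA sample of line 2, and its adjusted p reached 0.132 without the second of line 1 and was 0.107 when scaled by median ratios. MRM1, which methylates the ribosomal RNA of the large subunit, averaged 1.04 ± 0.0812 FPKM in SUPT4H1 siRNA samples and 1.41 ± 0.113 FPKM in control siRNA samples (SD, n = 4 each), a log2 change of -0.24 (adjusted p = 0.00592 by limma). Of 13 genes of mitochondrial transcription and RNA turnover 2 were higher (15.4%, against 42.1% of all genes called in either direction). They were HSD17B10, a subunit of mitochondrial RNase P, with a log2 change of 0.36 (adjusted p = 0.00258 by limma), and ELAC2, which cuts the other end of the tRNAs, with 0.26 (adjusted p = 7.8e-05 by limma). Of 8 nuclear regulators tested, 1 was higher and 1 lower (25%, against 42.1% of all genes), with a list median of -0.05. Scaled by median ratios, 1 was higher and 3 lower. ESRRA, a nuclear receptor of mitochondrial genes, rose by 0.24 (adjusted p = 0.000208 by limma), and MYC, a growth regulator, fell by 0.32 (adjusted p = 0.000235 by limma). Without the block, WARS2, HSD17B10, ELAC2 and ESRRA were the 4 genes of these lists that still passed.

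The subunits that this ribosome serves, and the proteins of the cytosolic ribosome were the other lists examined. Of 75 nuclear-encoded oxidative phosphorylation subunits tested, 18 were higher and 5 lower (30.7%, against 42.1% of all genes), with a median log2 change of 0.06, and scaling by median ratios changed this to 10 higher and 10 lower. NDUFA7 (0.32) and NDUFC1 (0.24), both of complex I, rose most, and NDUFS4 of complex I (-0.23) and UQCRB of complex III (-0.14) fell most. The call of UQCRB was lost without the first SUPT4H1 siRNA sample of line 2 (adjusted p = 0.0614 by limma). Of 81 cytosolic ribosomal protein genes tested, 54 were lower (66.7%, against 15.2% of all genes), with a median log2 change of -0.18, and the median was -0.21 when scaled by median ratios. Without the block, 2 oxidative phosphorylation subunits and 1 cytosolic ribosomal protein gene were called. RPS28 (-0.39) and RPS18 (-0.36) fell most among those called. That of RPS28, with a mean of 2.999 FPKM in SUPT4H1 siRNA samples and 3.999 FPKM in control siRNA samples, was lost without either control siRNA sample of line 2 (adjusted p = 0.0589 and 0.0664 by limma). The median of the 77 mitochondrial ribosomal protein genes was 0.03, and -0.0090 when scaled by median ratios and -0.0027 without the first control siRNA sample of line 2. Many cytosolic ribosomal protein genes have near-identical processed copies in the genome, so their values are uncertain.

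**Figure D5:**
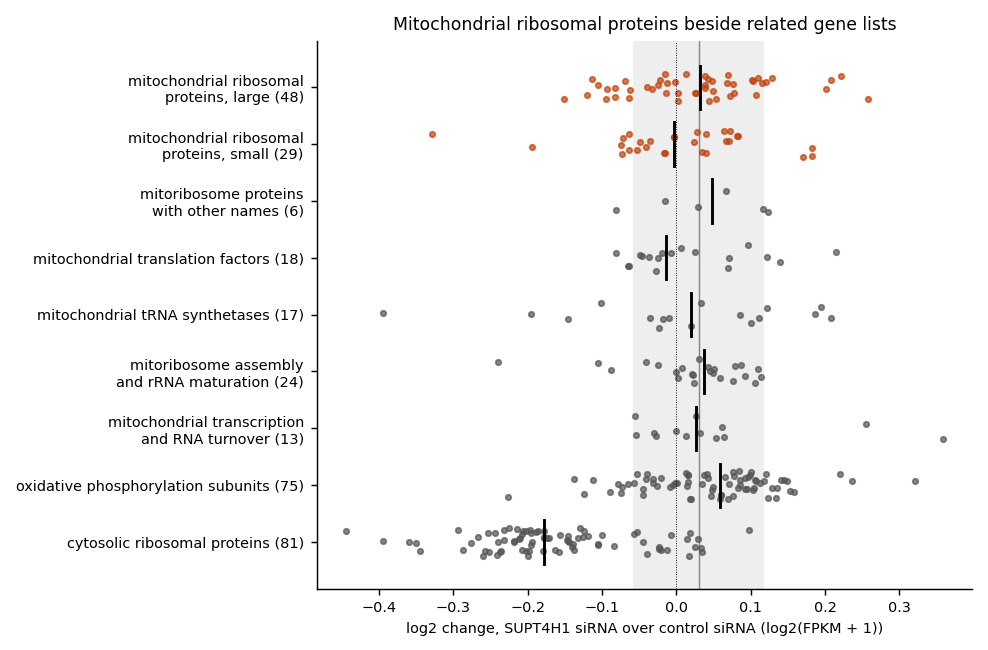
Log2 change, SUPT4H1 siRNA over control siRNA, on the log2(FPKM + 1) scale of every tested gene (points) in the large and small subunit and in 7 other lists, with the number tested in brackets, a black bar at each median, grey shading for the middle of all genes tested (quartiles -0.06 and 0.12) and a grey line at their median of 0.03. The mitochondrial ribosomal proteins sit around the median of all genes, and the cytosolic ribosomal proteins lie to the left of it, with a median of -0.18.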

How the data were processed

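The authors deposited FPKM per gene with interval bounds and a status for each of the 8 samples, 27032 rows per sample, on hg19 per the submitters' processing notes; for the aligner, quantifier, annotation and strand: not given in the sources used here. The members and lists were chosen with earlier results of these data known. Names of small RNAs (2047 symbols) were left out and rows of 1 symbol summed, which left 23221. Genes with a mean of at least 1 FPKM and status OK in every sample were tested (11434) on log2(FPKM + 1), which understates changes of low genes, with limma 3.58.1 in R 4.3.3 with a mean-variance trend and the line as block, since both siRNAs were given to the same cells. Responses by line came from 4 group means. Within a line, deviations from the mean of each siRNA correlated at 0.883 to 0.9 across genes between siRNAs. The fit was tested on simulated data. Named were the called genes with the 6 largest rises and falls, the 3 most abundant of each subunit, those whose response differed between lines and, per list, the 2 largest called rises and falls; other genes were named for a role, an overlap or an order. Alternatives were the block, pseudocount, filter, scaling, trend, summed rows, naming of subunits and leaving out each sample. Promoters came from RefSeq (GRCh38.p14). Plots used matplotlib 3.10.9, and tables pandas 2.3.3 with numpy 2.4.6 on Python 3.11.15.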

Additional observations from a re-analysis of the deposited data

Results flagged for a closer look

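The response to SUPT4H1 siRNA differed between the lines in 3 of the 77 genes by the test of the difference, line 2 minus line 1, in limma. For MRPS6 the difference was 0.4674 (adjusted p = 0.00147 by limma), with a log2 change of -0.095 in line 2 and -0.56 in line 1. SLC5A3, whose locus overlaps, differed by 0.53. For MRPS25 it was 0.2307 (adjusted p = 0.049 by limma), with samples above the controls in line 2 and below them in line 1. For MRPS22 it was -0.1954 (adjusted p = 0.0471 by limma), with samples below the controls in line 2 and above them in line 1. Of all genes tested, 9.85% passed this test. What sets the lines apart was not tested.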

How the results depend on the processing

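The line is the pairing used, because both siRNAs were given to the same cells. Without that replicate block 0 of the 77 genes were called by limma (0 higher, 0 lower, 0 in the large and 0 in the small subunit), with 11 at an unadjusted p under 0.05, and 4 of the 22 called genes of the pathway lists were left. The replicate numbers were not treated as pairs. Deviations of same-numbered samples from their group means correlated at 0.103 in line 1 and 0.0521 in line 2. With 2 samples per group, samples of unlike number must give the same r with the opposite sign. These values therefore cannot tell whether the numbers pair the samples. With line and number together as block 10 genes were called, 3 of them lower and 5 in the large subunit. With no filter on FPKM 6 large subunit genes were called, and by structure 3 small subunit genes. Scaled by median ratios, 13 genes were lower, and the medians were -0.0024 in the large and -0.0364 in the small subunit. Leaving out each sample in turn gave 10 to 16 called genes, 6 to 12 higher and 3 to 7 lower (3 without either SUPT4H1 siRNA sample of line 2 or the second control siRNA sample of line 2), 5 to 10 in the large subunit, 14 to 24 in the pathway lists (14 without the first control siRNA sample of line 2), 9 to 15 in line 2, 1 to 2 that differed between lines, and a small subunit median of -0.0147 to 0.027. The share of all genes called, 42.1% in the main fit, was 34.65 to 39.99% on leaving out each sample in turn. It was 35.27% with line and number together as block, 24.66% with no filter on FPKM and 40.5% when scaled by median ratios. The log2 change of MRPS25, -0.02, ranged from -0.0594 upwards on leaving out a sample, and turned to 0.0091 and 0.0026 without either SUPT4H1 siRNA sample of line 1 and to 0.0016 and 0.0101 without either control siRNA sample of line 1. That of MRPS34, 0.02, turned to -0.0112 when scaled by median ratios and to -0.0049 without the first control siRNA sample of line 2, with a highest value of 0.055 on leaving out a sample. MRPL51, MRPS22 and the 13 called genes given with values in every sample kept their direction under every alternative run. The cause was not tested. The depth is unknown, so the smallest change that these libraries could show was not computed.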
